A study of Mus musculus with 23 samples.

Results

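Accessible chromatin was compared between the resident macrophages of the mouse liver, called Kupffer cells, and the macrophages found in the liver 48 h after the resident cells had been targeted with diphtheria toxin. The measurement was ATAC-seq, in which a transposase cuts and tags DNA that is not covered by nucleosomes, so that a peak marks an open stretch of chromatin. Both groups carried the same alleles, Clec4f-cre and Rosa26iDTR, in which Cre recombinase is driven from the promoter of the Kupffer cell lectin gene Clec4f and switches on a receptor for diphtheria toxin. The 2 Kupffer libraries came from mice given PBS, and the 2 libraries titled as repopulating liver macrophages came from mice given diphtheria toxin 48 h earlier. These 4 libraries, each titled with a mouse number of its own, were taken from a series of 23. The labels do not give the animals' age, and they do not state how many Kupffer cells were left after the toxin, so the 48 h libraries are described by their label only. The tag directories named in the file headers read Clec positive for the Kupffer libraries and Clec negative for the 48 h libraries, a tag that the labels do not explain. A gate on that lectin would select the cells by one of the genes described below. Overlapping peaks of the 4 files were merged into 103050 regions on mm10, each stated with its Normalized Tag Count, the number of tags in the peak scaled to 10000000 tags per library.

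Kupffer cells live in the liver sinusoids, where they take up bacteria, aged red cells and lipoproteins through scavenger receptors. Their identity is known to depend on lineage factors shared by all macrophages, such as PU.1, together with factors that the liver niche induces in them, such as LXR-alpha (Nr1h3), ID3 and SPIC. When Kupffer cells are lost, circulating monocytes enter the liver and take on Kupffer features under Notch, TGF-beta and BMP signals, with some markers, TIM4 among them, gained late. An open region near a gene is one of the conditions for its expression and is not itself a measure of RNA.

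Of the 103050 regions, 46126 (44.8%) were called as peaks in all 4 libraries. Another 4692 regions were called in both Kupffer libraries and in neither 48 h library, which is 4.55% of the merged regions, and 13081 (12.7%) were called in both 48 h libraries and in neither Kupffer library. The remaining 39151 regions had any other combination, among them 17178 called in 1 of the 48 h libraries alone and 6492 in 1 of the Kupffer libraries alone. The counts of group-only regions followed the lengths of the peak lists, which held 62488 and 65492 peaks for the Kupffer libraries and 75159 and 84395 at 48 h. With each list cut to the same number of its strongest peaks, 7045 regions were Kupffer-only and 6765 were 48 h-only. Presence alone was therefore not read as a difference in number. A Kupffer-only region had a 48 h peak within 1 kb in 23.1% of cases, and a 48 h-only region had a Kupffer peak that close in 15.2%. Without Kupffer library 1 the count of Kupffer-only regions was 8071, without Kupffer library 2 it was 7805 and without 48 h library 2 it was 7301. Without 48 h library 1, 24999 regions were 48 h-only.

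At the 46126 regions shared by all 4 libraries, signal was compared by limma on log2(Normalized Tag Count + 1), after each library had been centred on its median over these regions. Here 6340 regions (13.7%) were higher in Kupffer cells and 5426 regions (11.8%) were lower, at an adjusted p under 0.05. Fold changes are given as log2 values of Kupffer cells minus 48 h macrophages, with the standard error, and they are differences relative to the median region. The centring matters because the median shared region read lower in the Kupffer libraries, by -0.30 on the log2 scale. Before centring, both Kupffer values lay above both 48 h values at 7818 shared regions and below both at 22941. Such separation was therefore common, above all in the lower direction. Where groups are said below not to overlap, these uncentred values are meant. Without centring, 2900 regions were higher and 11610 lower, and with the median of the regions at gene starts set to zero, a choice made after seeing the data, 8731 were higher and 3462 lower. The 2900 higher regions without centring all belonged to the 6340, and the 3462 lower regions of the gene-start scaling all belonged to the 5426. A change of at least 2-fold past the threshold was seen at 2908 higher and 1772 lower regions. Fewer regions passed in all when Kupffer library 1 was left out (7564), or 48 h library 1 (6813), or 48 h library 2 (6749).

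**Figure D1:**
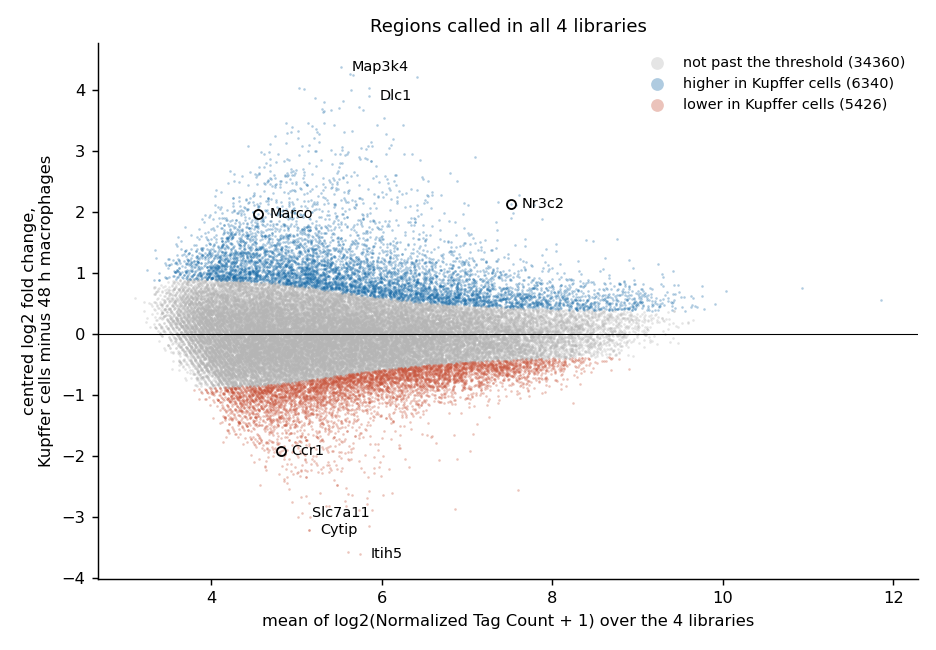
Each point is 1 of the 46126 regions called in all 4 libraries, with the mean log2(Normalized Tag Count + 1) of the 4 libraries on the x axis and the centred log2 fold change, Kupffer cells minus 48 h macrophages, on the y axis. Blue points are the 6340 regions higher in Kupffer cells and red points the 5426 lower ones by limma, and the circled regions of Nr3c2 (2.13), Marco (1.96) and Ccr1 (-1.93) are described in the text.

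The 4 libraries held 10431396 to 13634418 tags each. The share of tags in peaks was 32.6% and 36.6% in the Kupffer libraries and 42.0% and 44.5% at 48 h, and 2 against 2 libraries cannot give an exact permutation p below 0.333. Log2 signal correlated more closely within a group (Pearson r of 0.948 and 0.950 across regions) than between groups (0.835 to 0.865). The gene starts of 12 hepatocyte markers had no peak in any of the 4 libraries. Of 7 liver endothelial gene starts, 1 had a peak in each Kupffer library and 3 in each 48 h library, with summed Normalized Tag Counts of 17.3 to 29.4 and 47.9 to 48.3. Clec4g and Tek were among those without one. At the endothelial list as a whole, 10 of 34 shared regions (29.4%) were higher in Kupffer cells and 2 lower, with a median log2 fold change of 0.46, and without centring 6 were higher and 3 lower. Dendritic cell gene starts, 10 in all, had a peak at 1 or 2 in the Kupffer libraries and at 5 at 48 h, with sums of 93.9 to 102.4 and 191.4 to 213.4. Of 47 shared regions at the dendritic list, 10 (21.3%) were higher in Kupffer cells and 3 lower, with a median of 0.21, and without centring the counts were 7 and 7. The 10 higher regions lay at 2 genes, 9 of them at Tcf4, which held 19 of the 47, and the 3 lower regions at 3 genes. The balance of this list is thus mainly that of Tcf4. The starts of Xcr1, Clec9a, Zbtb46 and Ccr9 had no peak in any of the 4 libraries. Of the dendritic list's 131 merged regions, 21 were 48 h-only, with 5 at Flt3, 5 at Dpp4 and 4 at Btla. Another 6 were Kupffer-only, with 3 at Tcf4 and 1 at Flt3. Neutrophil gene starts had a peak at 3 or 4 of 13 (sums of 138.5 to 171.6), T and NK cell gene starts at 2 to 4 of 12 (42.7 to 52.1), stellate gene starts at 2 of 11 (87.2 to 116.6) and B cell gene starts at 1 of 8 (9.59 to 31.4), with none at Ly6g, Mpo, Cd3e, Lrat or Cd79a. Of the 26 regions of the whole hepatocyte list, 6 (23.1%) were 48 h-only, 4 of them at Hnf4a. The same held for 11 of 49 (22.4%) stellate and 10 of 47 (21.3%) neutrophil regions, beside 12.7% of all merged regions. In the same order, 1, 1 and 0 were Kupffer-only. T and NK cell (16.7%), dendritic (16.0%) and endothelial (14.8%) shares were nearer to 12.7%, and B cell genes had 3 of 40. Of 7 shared hepatocyte regions, 2 were higher in Kupffer cells, at Alb and Ttr, and 2 lower. The part of other cell types in the differences below was not tested.

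The starts of 5 genes described below, with differences in both directions, are printed here, each as the 300 bases from 250 before to 50 after the gene's start in the direction of transcription, from RefSeq on GRCm38.p6, the assembly that mm10 names. Timd4 and Clec4f were open at the start in Kupffer cells alone, Nr3c2 was higher in Kupffer cells, and Slc7a11 and Ccr1 were more open at 48 h. The windows lie at chr11:46810549-46810848 (Timd4, plus strand), chr6:83656067-83656366 (Clec4f, minus strand), chr8:76902080-76902379 (Nr3c2, plus strand), chr3:50443564-50443863 (Slc7a11, minus strand) and chr9:123968643-123968942 (Ccr1, minus strand). Capitals mark matches to 4 motifs, searched on both strands and chosen after these sequences had been seen: AP-1 (TGANTCA), the ETS-IRF composite element (GGAANNGAA), the antioxidant response element (TGACNNNGC) and the amino acid response element (TGATGCAA).
Timd4: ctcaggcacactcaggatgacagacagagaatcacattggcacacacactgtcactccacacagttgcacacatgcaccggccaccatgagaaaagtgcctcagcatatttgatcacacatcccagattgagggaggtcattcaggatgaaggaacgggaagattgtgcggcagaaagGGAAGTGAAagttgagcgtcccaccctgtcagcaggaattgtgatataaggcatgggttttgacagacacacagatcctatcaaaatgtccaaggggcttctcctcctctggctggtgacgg
Clec4f: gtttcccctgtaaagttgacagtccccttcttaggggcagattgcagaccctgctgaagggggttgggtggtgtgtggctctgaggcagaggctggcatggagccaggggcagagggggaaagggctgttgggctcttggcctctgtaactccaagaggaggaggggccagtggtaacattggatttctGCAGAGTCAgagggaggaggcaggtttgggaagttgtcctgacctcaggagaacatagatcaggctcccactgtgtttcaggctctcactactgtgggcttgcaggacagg
Nr3c2: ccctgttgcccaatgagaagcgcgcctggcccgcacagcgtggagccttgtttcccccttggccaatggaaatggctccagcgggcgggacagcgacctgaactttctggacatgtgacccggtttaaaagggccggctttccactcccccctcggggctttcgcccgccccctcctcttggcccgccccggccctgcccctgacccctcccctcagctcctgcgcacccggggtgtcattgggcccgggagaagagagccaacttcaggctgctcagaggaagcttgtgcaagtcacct
Slc7a11: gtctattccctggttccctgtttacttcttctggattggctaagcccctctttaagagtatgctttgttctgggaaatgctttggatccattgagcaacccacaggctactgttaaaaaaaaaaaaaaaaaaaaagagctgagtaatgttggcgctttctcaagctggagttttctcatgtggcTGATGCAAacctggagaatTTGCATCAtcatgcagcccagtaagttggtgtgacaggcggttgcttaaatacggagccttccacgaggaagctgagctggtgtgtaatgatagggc
Ccr1: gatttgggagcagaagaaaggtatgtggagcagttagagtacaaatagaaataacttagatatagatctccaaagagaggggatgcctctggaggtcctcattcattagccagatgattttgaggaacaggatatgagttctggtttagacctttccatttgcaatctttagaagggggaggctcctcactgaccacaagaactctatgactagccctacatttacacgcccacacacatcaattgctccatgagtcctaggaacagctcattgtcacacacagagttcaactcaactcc
Counted from 1 at the 5′ end of each window, Timd4 held 1 ETS-IRF match at bases 179 to 187, and Clec4f held 1 antioxidant element at bases 190 to 198 on the opposite strand. Slc7a11 held amino acid response elements at bases 185 to 192 and, on the opposite strand, 204 to 211. No match to these letters lay in the Nr3c2 or Ccr1 window. Among all 32619 RefSeq start windows, 7.85% held an AP-1 match, 8.14% an ETS-IRF match, 12.4% an antioxidant element and 0.880% an amino acid response element. The ETS-IRF element was in 10.8% of the 166 windows with a Kupffer-only region and in 8.29% of the 543 with a 48 h-only region, and the antioxidant element in 15.1% of both. The matches are descriptions of these letters and do not show binding.

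The Kupffer identity genes were split. Timd4, Clec4f and Marco had only higher or Kupffer-only regions among those that differed, whereas several other genes used to mark Kupffer cells differed little or in both directions. Over the 42 genes of the list, 45 of 220 shared regions (20.5%) were higher in Kupffer cells and 25 (11.4%) lower, with a median log2 fold change of -0.01 beside -0.00 for all shared regions, and without centring the balance turned to 29 higher and 58 lower. Of the list's 487 merged regions, 52 (10.7%) were Kupffer-only and 35 (7.19%) were 48 h-only, beside 4.55% and 12.7% of all merged regions. The list is read beside the 13.7% and 11.8% of all shared regions, and its excess of higher over lower regions fell from 20 to 5 without Kupffer library 2.

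Timd4, which encodes the receptor TIM4 for phosphatidylserine on dying cells, held the clearest difference in presence. It had no shared region, and 14 regions over 80.2 kb were Kupffer-only, with Normalized Tag Counts from 10.4 to 84.4. At its start, chr11:46810575-46810849, the Kupffer libraries read 84.4 and 76.7. No peak was called there at 48 h. None of the 14 regions overlapped a peak in the 3 libraries taken 24 h after the toxin or the 2 of blood Ly6Chi monocytes, which was so for 86.8% of all Kupffer-only regions. Of the 14, 13 were called in both Nr1h3 flox/flox control libraries of the series, but their titles state that those cells were TIM4+, so that recall is tied to how they were selected. Its neighbour Havcr1, the gene of the related receptor TIM1, had 5 Kupffer-only regions with values up to 59.4 and no shared region.

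Clec4f, the lectin that defines Kupffer cells and the gene whose promoter drives Cre in these mice, was also more open in Kupffer cells. Its strongest shared region, chr6:83631876-83632104, read 84.4 and 111.2 in the Kupffer libraries against 29.6 and 24.2 at 48 h. The groups did not overlap, and limma gave a log2 fold change of 2.11 ± 0.25 (adjusted p = 9.3e-09). A second shared region was higher by 1.28 and the other one did not pass. The start of the gene was weakly called in Kupffer cells, at 16.1 and 12.5, and had no peak at 48 h. Clec4f thus combined 2 higher and 3 Kupffer-only regions, none of them matched by a 48 h-only region. The 3 Kupffer-only regions were called in both Nr1h3 control libraries, whose titles also read Clec negative (KcClecNegTim4Pos), and in no 24 h or blood library. Of all Kupffer-only regions, 56.4% were called in both of these controls and 86.8% in no 24 h or blood library.

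Marco and Stab2, both scavenger receptors, lay on the same side. Marco, a receptor for bacteria and particles, had 7 shared regions and all 7 were higher in Kupffer cells, by 1.05 to 1.96, with 3 further Kupffer-only regions. Its strongest difference, at chr1:120519426-120519689, stood on 37.9 and 44.1 in Kupffer cells against 8.72 and 16.9 at 48 h (limma log2 fold change 1.96 ± 0.34, adjusted p = 1.9e-05). Both Kupffer values lay above both 48 h values. Another Marco region, at chr1:120532545-120532954, shows how far the 48 h libraries could part, with 101.4 and 83.4 in Kupffer cells against 23.5 and 81.4. Stab2, the receptor of sinusoidal cells for hyaluronan, had 4 of 6 shared regions higher, by 1.23 to 1.70, and 5 Kupffer-only regions within and beside its 167 kb body. The strongest of them read 43.6 and 72.9 against 13.1 and 32.3. Stab2 is also a marker of liver endothelial cells, and its start had no peak in any of the 4 libraries.

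Further genes open on the Kupffer side were metabolic or secreted. Hpgd, which breaks down prostaglandins, had 8 of 11 shared regions higher, by 0.91 to 2.10. At its start the signal was 67.3 and 93 in the Kupffer libraries and 32.2 and 22.7 at 48 h, without overlap (limma log2 fold change 1.81 ± 0.27, adjusted p = 1.1e-06). Pcolce2, a collagen-processing cofactor, had 2 of 4 shared regions higher and 5 Kupffer-only regions of 14.2 to 52.1. The complement gene C6 had 1 of 3 higher by 1.18 and 3 Kupffer-only regions of 12.5 to 98.7. Cxcl13, a B cell-attracting chemokine, had no shared region and 4 Kupffer-only regions outside its short body, with values of 11.5 to 107.1. All 4 were called in both Nr1h3 controls and in no 24 h or blood library, beside 56.4% and 86.8% of all Kupffer-only regions.

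Several Kupffer genes did not share this direction. Cd5l, a secreted scavenger-family protein, was higher at its start, with 76.8 and 62.3 against 51.4 and 52.1 (limma log2 fold change 0.71 ± 0.24, adjusted p = 0.024), but 2 of its shared regions were lower and it had 2 Kupffer-only and 2 48 h-only regions. Without centring, the start of Cd5l did not pass (adjusted p = 0.24). Vsig4, a complement receptor, had 2 of 5 shared regions lower in Kupffer cells, while its start was Kupffer-only at the low values of 18 and 8.63. Cd163, the haemoglobin receptor, had 1 higher and 2 lower of 7. Slc40a1, the iron exporter ferroportin, had 1 of 8 lower by 1.24 on the log2 scale. No shared region of Folr2, Id1 or Hmox1 passed the threshold. For Nr1h3 itself 1 of 3 regions passed, at -0.76 (limma adjusted p = 0.027). That region did not pass with the gene-start scaling, and without centring all 3 were lower. For Id3 2 of 8 were lower.

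**Figure D2:**
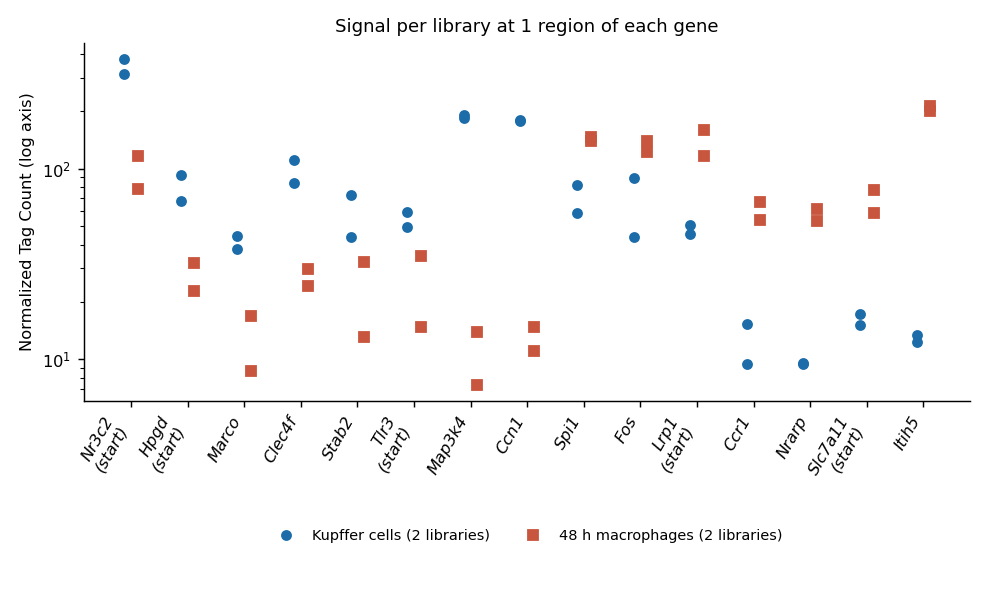
Normalized Tag Count on a log axis in each of the 4 libraries (blue circles, Kupffer cells; red squares, 48 h macrophages) at 1 region of each gene, with "start" where the region covers the gene's start. Where no start is marked, the region is the gene's shared region with the largest absolute fold change. At every region shown both libraries of one group lie above both of the other, from Nr3c2 at 376.3 and 315.4 against 78.4 and 116.6 to Itih5 at 12.3 and 13.4 against 214.4 and 201. Such separation also held at 7818 (Kupffer cells above) and 22941 (below) of the 46126 shared regions.

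Among transcription factors and receptors that act in the nucleus, Nr3c2 combined a large difference with a strongly open start. It encodes the mineralocorticoid receptor, which binds aldosterone and glucocorticoids. Its start, chr8:76901920-76902209, read 376.3 and 315.4 in Kupffer cells and 78.4 and 116.6 at 48 h, with a limma log2 fold change of 2.13 ± 0.18 (adjusted p = 3.9e-13). The groups were far apart, and the smallest difference under any alternative was 1.84. A second region showed 154.5 and 145.7 against 41.8 and 42.5, and 4 more regions inside the gene were Kupffer-only. Both shared Nr3c2 regions were also called in all 3 libraries at 24 h and both of blood, so the start was open across these cells at differing height. The same calls held for 56.2% of all shared regions higher in Kupffer cells. Etv1, an ETS family factor, had 8 of 13 shared regions higher by 1.07 to 1.58. Zbtb7c, a zinc finger factor, had 5 of 6 higher with 11 Kupffer-only regions. Klf6 had 5 of 13 higher, among them 99.5 and 118.9 against 67.1 and 60.1 just beyond the gene, but its start did not pass, with 424.6 and 442.9 against 468 and 429.8. Klf6 lost 2 of these 5 without centring and 1 other region then turned lower.

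Spi1, which encodes PU.1, a factor shared by all macrophages, lay on the other side. It had 4 of 5 shared regions lower in Kupffer cells by 0.57 to 0.74 in size. Its strongest difference was 58.8 and 82.4 against 140.3 and 146, without overlap (limma log2 fold change -0.74 ± 0.19, adjusted p = 0.0039). With the gene-start scaling 1 of the 4 passed, so the call for Spi1 depends on the zero point. Over the 42 genes of the transcription factor list the shared regions were near balance, with 37 of 279 higher and 31 lower, and 11.1% lower beside 11.8% overall. The balance turned to more lower than higher without centring (-34 net) and without Kupffer library 2 (-7 net). Of the list's 617 regions, 90 (14.6%) were 48 h-only and 22 (3.57%) Kupffer-only, beside 12.7% and 4.55% of all merged regions.

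The Runx genes, factors of blood cell development, are among the list's members with group-only regions. Runx3 had 13 48 h-only regions of 18.3 to 128.4, Runx2 had 12 and Runx1 had 11, beside 1 Kupffer-only region among them, at Runx1. At Runx3, 12 of the 13 regions were called in all 3 libraries at 24 h, while 7 of 12 were at Runx2 and 6 of 11 at Runx1. None of the Runx1 and Runx2 regions and 4 of the Runx3 regions were called in both Nr1h3 controls. Over all 48 h-only regions, 8.30% were called in both Nr1h3 controls. Each single library at 24 h called 60.5% to 67.0% of them, a looser measure than a call in all 3. The shared regions did not all go the same way. At Runx2, 4 of 9 were higher in Kupffer cells and 1 lower, while 1 of 18 was lower at Runx1 and 1 of 1 at Runx3. Bcl11a, a repressor of early blood cell programmes, had 8 48 h-only regions and 4 of 5 shared regions lower in Kupffer cells by 1.13 to 1.49 in size. Outside the list, Foxp1, a forkhead factor with a gene body of 597 kb, had 26, the most of any gene, though long genes hold more regions. Its shared regions went both ways, with 3 higher and 4 lower.

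**Figure D3:**
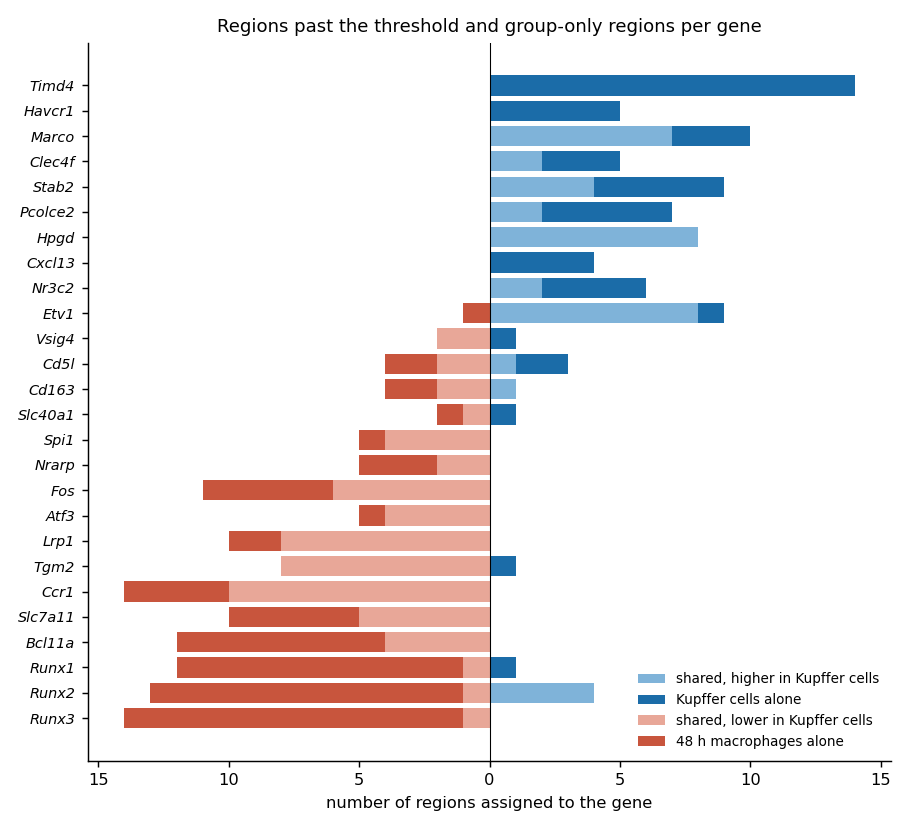
Bars to the right count, for each gene, the shared regions higher in Kupffer cells (light blue) and the Kupffer-only regions (dark blue), and bars to the left the shared regions lower in Kupffer cells (light red) and the 48 h-only regions (dark red). Timd4 reaches 14 on the right from Kupffer-only regions, Ccr1 has 10 lower and 4 48 h-only regions on the left, and Cd5l has regions on both sides.

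Monocyte and chemokine genes had more regions lower in Kupffer cells than higher, though 73 of 91 and 87 of 113 shared regions did not pass the test. Of the 91 shared regions at 30 monocyte genes, 15 (16.5%) were lower in Kupffer cells and 3 (3.30%) higher, with a median of -0.32. Of this list's 210 merged regions, 40 were 48 h-only and 0 Kupffer-only, beside 12.7% and 4.55% of all merged regions. At 35 chemokine and chemokine receptor genes, 21 of 113 (18.6%) were lower and 5 higher, with a median of -0.35 beside -0.00 over all, and over all shared regions 11.8% were lower and 13.7% higher. Lower regions outnumbered higher ones in both lists under each scaling tried and without each library. With the gene-start scaling the counts were 10 lower and 6 higher for the monocyte genes and 13 and 8 for the chemokine genes. For the monocyte list the net count was -6 without 48 h library 1 and -7 without 48 h library 2. For the chemokine list it was -3 (3 higher, 6 lower) when genes were matched within 10 kb in place of 50 kb, -4 without 48 h library 2, -7 without Kupffer library 1 and -9 without 48 h library 1.

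Ccr1, a receptor through which monocytes respond to CCL3 and CCL5, had 10 shared regions, all 10 of them lower in Kupffer cells, and 4 48 h-only regions. Its strongest difference, at chr9:123941464-123941723, read 9.48 and 15.3 in Kupffer cells and 54 and 66.7 at 48 h, with a limma log2 fold change of -1.93 ± 0.32 (adjusted p = 9.3e-06). The groups did not overlap. At the start of Ccr1, chr9:123968551-123968857, the 48 h libraries had 121.1 and 129.1, Kupffer library 2 had 8.63 and Kupffer library 1 had no peak, so this region took no part in the fit. With the gene-start scaling 7 of the 10 remained lower.

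Ccr2, the receptor by which monocytes leave the marrow, had 2 48 h-only regions and no peak at its start in any of the 4 libraries. The start of Cx3cr1, the fractalkine receptor, was 48 h-only with 24.4 and 30.8, and the start of Ly6c2, which encodes the Ly6C antigen of inflammatory monocytes, with 26.1 and 27.1. At Ly6c2, however, 2 shared regions were higher in Kupffer cells. S100a6, a calcium-binding protein, read 23.7 and 22 at its start against 70.6 and 63.8 (limma log2 fold change -1.22, adjusted p = 0.001), with both 48 h values above both Kupffer values. Spp1 (osteopontin) and Gpnmb had 4 48 h-only regions each, and the integrin gene Itgb3 had 5. Over the list of 31 integrin and adhesion genes, 59 of 446 regions (13.2%) were 48 h-only and 9 (2.02%) Kupffer-only, beside 12.7% and 4.55% of all merged regions.

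Immediate early genes had more lower than higher regions. These genes encode the AP-1 factors and others that respond to stimulation within minutes, and their chromatin is also known to respond to cell isolation. Of 146 shared regions at 29 genes, 43 (29.5%) were lower in Kupffer cells and 7 (4.79%) higher. This compares with 11.8% and 13.7% of all shared regions, and the list's median was -0.31. The net count stayed below 0 under each scaling and without each library, between -73 without centring and -6 without 48 h library 1. It was -13 without Kupffer library 1, -22 without 48 h library 2 and -14 with the gene-start scaling. Handling time is not given in the labels and its part was not tested.

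Fos had 6 of 14 shared regions lower and 5 48 h-only regions. At its start the values were 114.7 and 180.2 in Kupffer cells and 236.2 and 265.5 at 48 h (limma log2 fold change -0.50 ± 0.17, adjusted p = 0.023), without overlap, and this call was lost with the gene-start scaling (adjusted p = 0.08). The region 4.87 kb from Fos read 43.6 and 89.2 against 140.3 and 121.8, and it did not pass without Kupffer library 1 (adjusted p = 0.25) or without 48 h library 1 (0.12). Atf3, a stress-induced repressor, had 4 of 9 lower. Its distal region at chr1:191230627-191230893 read 14.2 and 15.3 against 79.3 and 106.3, a limma log2 fold change of -2.27 ± 0.28 (adjusted p = 3.5e-08), while its start did not pass at 206.6 and 290.5 against 297.2 and 267.7. The difference at Atf3 thus lay away from its start.

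Notch targets had 18 of 89 shared regions (20.2%) lower in Kupffer cells and 2 (2.25%) higher, beside 11.8% and 13.7% of all shared regions. Their median was -0.22, and 69 did not pass. The net count kept its sign under each scaling and without each library. It was -7 without 48 h library 1 in place of -16, and -6 with the gene-start scaling (6 higher, 12 lower). Nrarp, which is induced by Notch and dampens it, had 2 of 2 regions lower and 3 48 h-only regions. The region at chr2:25166306-25166618, 14.1 kb from the gene, read 9.48 and 9.59 in Kupffer cells and 53.2 and 61.6 at 48 h, without overlap (limma log2 fold change -2.17 ± 0.32, adjusted p = 1.5e-06). At the start of Nrarp the values were 86.3 and 96.8 against 174.3 and 155.5. Ccnd1, which encodes cyclin D1, had 4 of 7 lower by up to 1.69 in size. Hes1, the classical Notch target, had no region past the threshold and 1 Kupffer-only region of 45.5 and 66.1. TGF-beta and BMP genes had 16 higher (10.7%) and 17 lower (11.3%) of 150, beside 13.7% and 11.8% of all shared regions. Of their 313 regions 34 (10.9%) were 48 h-only, near the background of 12.7%, and 9 of these lay at the latent TGF-beta binding protein gene Ltbp1.

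Lysosome genes had 26 of 137 shared regions lower in Kupffer cells and 7 higher, and antigen presentation genes had 18 of 123 (14.6%) lower and 5 higher, beside 11.8% lower and 13.7% higher over all shared regions. The net count of both lists stayed below 0 under each scaling and without each library. For lysosome genes it was -6 without 48 h library 1, -7 without 48 h library 2 and -9 without Kupffer library 1, and for antigen presentation genes -2 without 48 h library 1 and -4 without Kupffer library 1. Lgmn, a lysosomal protease, had 4 of 8 lower, its start with 129.9 and 167.8 against 281.5 and 270.6 (limma log2 fold change -0.60 ± 0.16, adjusted p = 0.0046). Both 48 h values were above both Kupffer values. Ctsd, which encodes cathepsin D, had 3 of 5 lower. Lrp1, a receptor for apoptotic cells and lipoproteins, had 8 of 10 lower, its start with 45.5 and 50.8 against 116.8 and 159.2 (-1.19 ± 0.21, limma adjusted p = 2.6e-05). Tgm2, a transglutaminase that aids phagocytosis, had 8 of 8 lower by 0.70 to 1.23 in size. The scavenger and efferocytosis list holds Marco and Stab2 together with Lrp1, and had 22 higher (13.3%) and 29 lower (17.6%) of 165. Its balance turned to 9 net higher with the gene-start scaling, and also changed sign without 48 h library 2.

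Slc7a11, the cystine importer that supplies glutathione synthesis, was open across its body at 48 h. All 5 regions with a value in every library were lower in the resident cells, by 1.37 to 2.93 in size, and passed under each scaling tried, and 5 further regions were 48 h-only. At its start, the window printed above, the Kupffer libraries read 15.2 and 17.3 and the 48 h libraries 58.4 and 77.7, a limma log2 fold change of -1.70 ± 0.30 (adjusted p = 2.6e-05). The region with the largest difference, inside the gene, read 8.53 and 11.5 against 83.7 and 122.5 (-2.93 ± 0.30, limma adjusted p = 1.8e-10). Neither pair overlapped. Its 5 shared regions were also called in all 3 libraries at 24 h and in both of blood monocytes, as were 92.0% of all shared regions lower in Kupffer cells. The NRF2 and antioxidant list as a whole, Slc7a11 included, had 19 higher (11.4%) and 26 lower (15.6%) of 167. Over all shared regions 13.7% were higher and 11.8% lower. The balance of the list turned to 16 net higher with the gene-start scaling. Gclc, the limiting enzyme of glutathione synthesis, had 3 of 12 higher by 0.51 to 0.53, and none of them passed without centring.

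Further lists also had more higher than lower regions with centring and fewer without it. Cholesterol synthesis genes had 9 higher (21.4%) and 4 lower (9.52%) of 42, with 2 of 2 higher at Cyp51 and 3 of 5 at Insig1, the sterol-sensing brake on SREBP. Cell cycle genes had 21 higher (16.5%) and 17 lower (13.4%) of 127, with 5 of 6 at Ccne1 (cyclin E1) and 8 of 25 at Cdk6. Toll-like receptor genes had 11 higher (10.2%) and 6 lower (5.56%) of 108. Over all shared regions 13.7% were higher and 11.8% lower. The Toll-like receptor shares lay below these in both directions, and the cell cycle shares lay a little above in both. Without centring the net counts were -5, -25 and -12, and leaving out Kupffer library 1 also turned cell cycle (-8) and Toll-like receptors (-1), as did leaving out 48 h library 2 (-5 and -2). Tlr3, the sensor of double-stranded RNA, had 4 of 4 higher, its start with 49.3 and 59.4 against 34.9 and 14.7 (limma log2 fold change 1.51 ± 0.32, adjusted p = 0.00038). The 2 libraries at 48 h lay wide apart at this start, and without 48 h library 2 it did not pass (adjusted p = 0.064). LXR targets showed 15 higher and 13 lower of 148, near the background in both directions, and Abca1, the cholesterol exporter, had 2 higher, 1 lower and 3 group-only regions on each side.

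**Figure D4:**
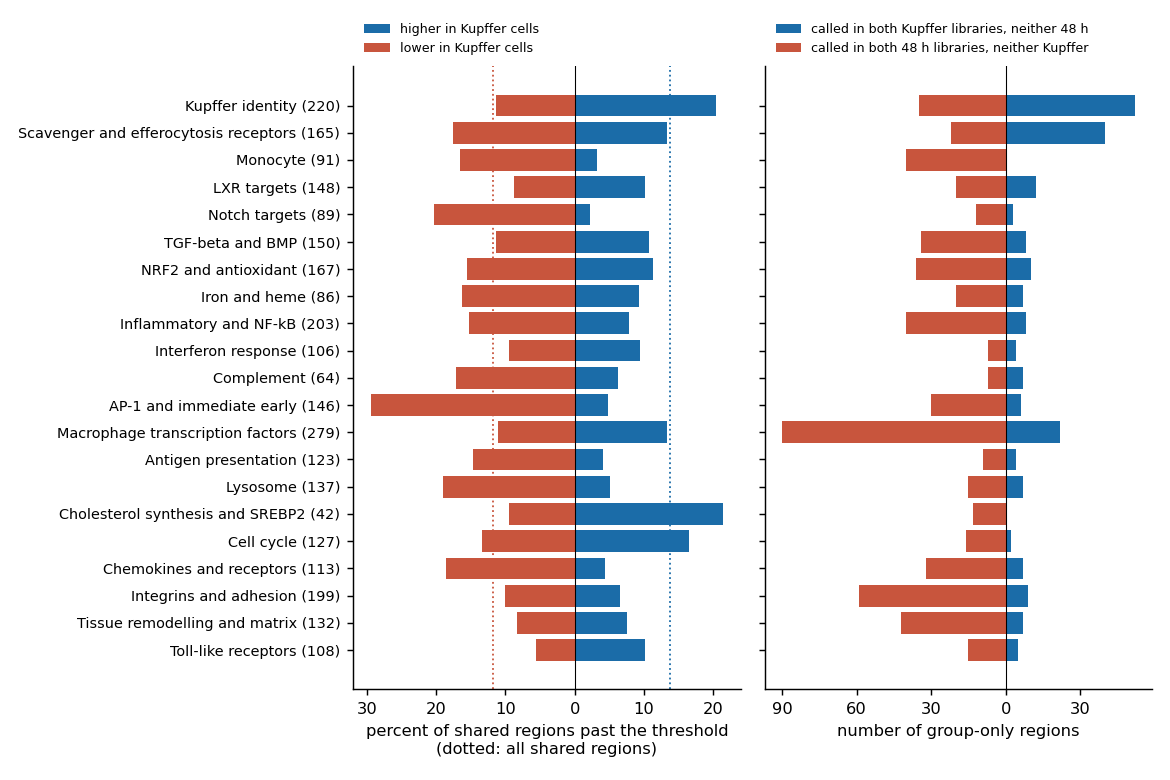
Left, percent of the shared regions of each gene list (number of shared regions in brackets) that were higher (blue, right) or lower (red, left) in Kupffer cells, with dotted lines at 13.7% and 11.8% for all shared regions. Right, the number of Kupffer-only (blue) and 48 h-only (red) regions; AP-1 and immediate early genes reach 29.5% lower, and without centring the Kupffer identity, LXR, transcription factor, cholesterol, cell cycle and Toll-like receptor balances turn to more lower than higher, whereas with the gene-start scaling the scavenger, TGF-beta, NRF2, iron, integrin and remodelling balances turn to more higher than lower.

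The largest changes lay mostly inside genes with no list of their own. By size of fold change, the first among higher regions was inside Map3k4, a kinase upstream of p38 and JNK, at chr17:12250078-12250415, with 191.5 and 184.1 in Kupffer cells against 13.9 and 7.33 at 48 h (limma log2 fold change 4.38 ± 0.28). Sfmbt2, a Polycomb-associated gene, followed with 219 and 202.3 against 15.7 and 13.9. Beside Ccn1, a secreted matrix protein, the values were 178.2 and 180.2 against 14.8 and 11. In each the 2 libraries of a group lay far closer to each other than to the other group. At the other end, a region 10.5 kb from Itih5, a hyaluronan-associated protein, read 12.3 and 13.4 against 214.4 and 201 (-3.62 ± 0.25). Enpep, an aminopeptidase that cleaves angiotensin, read 9.48 and 14.4 against 159.5 and 214.9. Inside Cytip, which regulates leukocyte adhesion through cytohesin, the values were 9.48 and 9.59 against 112.4 and 125.4. Several low values on both sides stood close to the lowest that a called peak can have, such as 7.33 at 48 h for Map3k4 and 9.48 in Kupffer cells for Cytip. These folds therefore depend on the pseudocount of 1. Changes of at least 8-fold past the threshold numbered 60 higher and 7 lower.

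At gene starts, examples chosen after their values were seen show the same range. The start of Klf15, a factor induced by glucocorticoids, read 110 and 154.3 in Kupffer cells against 26.1 and 16.9 (limma log2 fold change 2.87 ± 0.26, adjusted p = 3.3e-12). For Kitl, the ligand of KIT, the start read 75.8 and 47 against 9.59 and 10.3. On the other side Alcam, an adhesion molecule, read 55.9 and 90.1 against 519.4 and 520 (-2.56 ± 0.17, limma adjusted p = 2.9e-16). None of these groups overlapped. The Klf15 start was called in 1 of 3 libraries at 24 h and in no blood library, while that of Alcam was called in all 5.

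Some genes had most or all of their shared regions pass in 1 direction. Among 5519 genes with at least 3 shared regions, 61 had every one higher in Kupffer cells and 35 every one lower. Mfhas1 had 12 of 14 higher by 0.67 to 2.45, Ppp1r9a 11 of 13 and Kif16b 10 of 11, and without centring 9, 6 and 6 of these passed. In the lower direction Atp2b1, a plasma membrane calcium pump, had 10 of 15 and the histone demethylase gene Kdm6b 6 of 7. By count of group-only regions the Kupffer side was led by long genes, Dlgap2 with 16, Tenm2 with 15 and Ptprm with 14, whose bodies run from 688 to 1230 kb. Timd4 reached 14 with a body of 33.5 kb, and Tcim, a short gene of 1.78 kb, reached 10. At 48 h Foxp1 had 26, Pde4d, a cyclic AMP phosphodiesterase, 23 and Sgms2, a sphingomyelin synthase, 16. All 16 Sgms2 regions were called in at least 1 library of the 24 h or blood groups and none in both Nr1h3 controls. Over all 48 h-only regions, only 11.3% were called in no 24 h or blood library and 8.30% in both Nr1h3 controls, so Sgms2 lay near the general pattern.

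Position relative to genes differed between the classes. Regions over a gene start were 20.5% of the shared regions, but 3.48% of the Kupffer-only and 4.13% of the 48 h-only regions. Of the 9133 shared regions at gene starts, 12.3% were higher in Kupffer cells and 16.6% lower. Inside genes away from the start 13.3% were higher and 11.4% lower, and the 3671 regions with no gene within 50 kb showed the widest split, with 23.9% higher and 6.48% lower and a median of 0.24. Higher regions lay a median of 17.3 kb from the nearest gene start and lower regions 5.63 kb, beside 10.4 kb for all shared regions. Kupffer-only regions lay farther, at 28.0 kb, than 48 h-only regions, at 17.7 kb. The share of peaks at gene starts was 16.2% and 15.5% per Kupffer library and 14.1% and 12.9% at 48 h, and the part of library quality in the position pattern was not tested.

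The other 19 libraries of the series took no part in choosing the regions and show where else they were open. Of the Kupffer-only regions, 73.1% and 62.4% overlapped a peak in the 2 Nr1h3 flox/flox control libraries, 3.94% to 5.78% in the 3 libraries at 24 h after the toxin, which share the strain of the compared mice, and 4.94% and 5.24% in blood Ly6Chi monocytes. All merged regions were called at 54.4% to 63.1% in these 7 libraries. In both Nr1h3 controls together 56.4% were called, and 4074 of the 4692 (86.8%) were called in no 24 h and no blood library. The 48 h-only regions were called at 60.5% to 67.0% at 24 h and at 60.5% and 66.4% in blood, where all merged regions were called at 57.2% to 63.1%, and, as the mean of both Nr1h3 controls, at 15.7%. In the 4 libraries of cultured marrow-derived macrophages they were called at 65.0% to 75.3%, beside 66.5% to 73.5% of all merged regions. Of the 13081, 4726 (36.1%) were called in all 5 libraries of 24 h and blood, and 1476 (11.3%) in none of them.

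**Figure D5:**
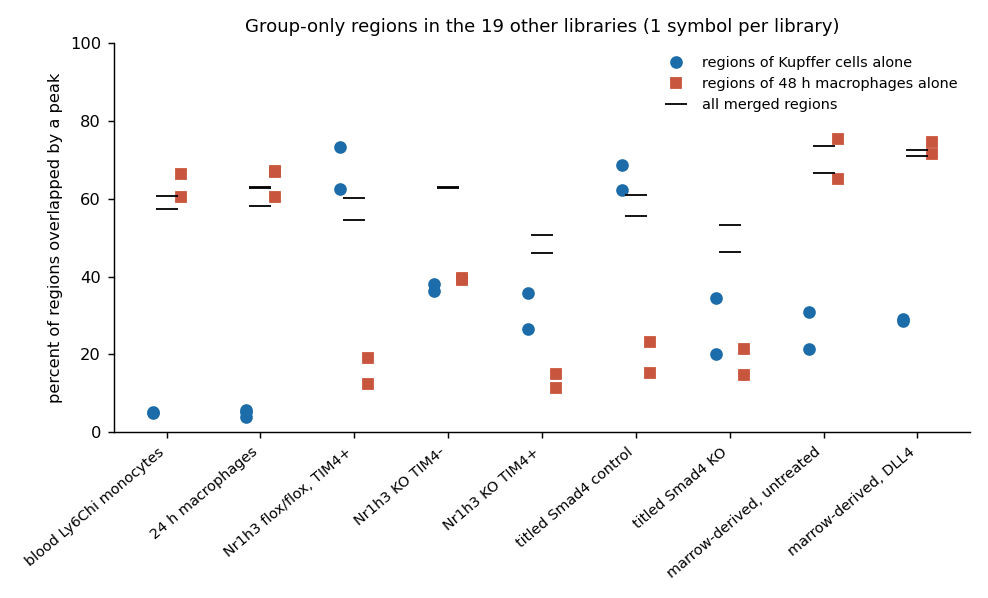
Percent of the Kupffer-only regions (blue circles), of the 48 h-only regions (red squares) and of all merged regions (black bars) that overlap a peak in each of the 19 libraries outside the comparison, 1 symbol per library. In blood and 24 h libraries the blue circles lie between 3.94% and 5.78% and the red squares between 60.5% and 67.0%, and in the Nr1h3 flox/flox controls the blue circles lie above the red squares.

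Fold changes in the shared regions could be set beside a contrast that shares no library with them, the mean of the 2 Nr1h3 flox/flox controls minus that of the 3 libraries at 24 h, centred in the same way, at the 34412 regions called in all 5. These groups differ in strain and in the stated TIM4+ selection as well as in cell state. Over all 34412 regions 45.0% had a value above 0, with a median of -0.09. Of the regions higher in Kupffer cells, 4064 had a value, with a median of 0.23, and 62.0% were above 0. Of the lower regions, 4807 had one, with a median of -0.34, and 28.6% were above 0. The directions thus recurred at a majority and not at all of the regions. In the Kupffer identity list 14 of 14 higher regions with a value were above 0 and 9 of 21 lower ones below 0. For the AP-1 and immediate early list 24 of 38 lower regions were below 0, for Notch targets 13 of 16 and for lysosome genes 11 of 23.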

How the data were processed

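ATAC-seq peak lists of 23 libraries were used, 4 of them compared. Per the submitters' processing notes reads were processed with Bowtie2 and HOMER on mm10. Per the file headers, HOMER findPeaks was run on each library separately with a peak size of 200 bp, an FDR of 0.001, at least 4-fold over the local 10 kb and a local Poisson p of 0.0001. The Normalized Tag Count is a deposited signal that the authors scaled to 10000000 tags, and the deposited findPeaks score was used only to rank peaks. A region without a peak has no deposited value, so group-only regions carry no fold change, and the total tags per library, 10431396 to 13634418, limit which weak peaks were called.

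Peaks of the 4 libraries overlapping by at least 1 bp were merged, the highest peak of a library standing for the region. Shared regions were tested with limma 3.58.1 in R 4.3.3 (two-sided, mean-variance trend, Benjamini-Hochberg over all shared regions) on log2(signal + 1) centred on each library's median. The script was tested on simulated data. Each region was given to the closest coding gene of RefSeq on GRCm38.p6, up to a distance of 50 kb; gene-start windows on chromosome 18 were not used here. The labels name separate mice, but 2 libraries per group are few. Named genes were the 10 largest changes per direction, the 10 genes per direction by group-only and by one-way shared regions, up to 4 per list and direction, and a set list of markers. The members and the gene lists were chosen with earlier results of these data known. Alternatives changed the centring, pseudocount, overlap, peak minimum, list length, gene distance, variance trend and libraries. A gene of the set list is not reported here.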

Additional observations from a re-analysis of the deposited data

How the results depend on the processing

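At the 35 single regions tested under the alternatives, 440 of 447 values kept their direction and their side of the threshold, and the other 7 kept their direction and no longer passed (at Fos, Spi1, Etv1, Tgm2 and Tlr3). The counts moved more, and where no cause is named it was not tested. Without the variance trend 7244 shared regions passed, 4177 higher and 3067 lower. Without centring 2900 were higher and 11610 lower, and with the gene-start scaling, chosen after seeing the data, 3462 were lower. Leaving out 1 library, which tests fewer samples, gave 6749 to 11862 passing regions, 3814 to 6274 higher and 2470 to 5588 lower, and by construction more group-only regions, 5884 to 8071 Kupffer-only and 15907 to 24999 at 48 h; the lone library of a group is then assumed to vary like the other group. Equal list lengths gave 7045 Kupffer-only and 6765 48 h-only regions, and a peak minimum of 20 gave 7406 48 h-only regions. With only the strongest peaks of each other library, 46.0% of the Kupffer-only and 5.13% of the 48 h-only regions were called in the Nr1h3 controls, 2.22% and 34.6% at 24 h and 2.67% and 38.7% in blood, beside 46.3%, 46.3% and 44.4% of all merged regions.

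Higher minus lower counts of lists turned sign without centring for Kupffer identity (-29), LXR targets (-27), transcription factors (-34), cholesterol synthesis (-5), cell cycle (-25), Toll-like receptors (-12), stellate (-1), B cell (-2) and neutrophil markers (-4). With quantile normalisation LXR targets and B cell markers turned to -1. With the gene-start scaling scavenger receptors (9), TGF-beta and BMP (14), NRF2 (16), iron and heme (1), integrins (10) and remodelling (8) turned. Leaving out 1 library gave -6 to 3 for scavenger receptors, -2 to 4 for LXR targets, -2 to 12 for TGF-beta and BMP, -7 to 15 for transcription factors, -8 to 5 for cell cycle, -2 to 4 for Toll-like receptors, -1 to 2 for neutrophil markers and -1 to 1 for hepatocyte markers. No paired analysis was possible because the titles give each library its own mouse number and the groups share none. The planned count test on tags rebuilt from the Normalized Tag Counts and the library totals was not run.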

Other observations

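Among the strongest regions of 1 group alone were some starts of stress and housekeeping genes. At the shared start of Hspd1 and Hspe1, which encode a mitochondrial chaperonin and its partner, the 48 h libraries read 326 and 399, and at the start of Eif2ak3, the kinase that senses unfolded protein in the endoplasmic reticulum, they read 337.3 and 321.2, in both cases with a Kupffer peak within 1 kb. At the start of Plcb1, a phospholipase gene, the values were 206.6 and 211.2 with no Kupffer peak that close, and all 3 libraries at 24 h and both of blood had a peak there. On the Kupffer side, the strongest region covered the starts of Aasdhppt and Kbtbd3, with 619.9 and 581.9 and a 48 h peak within 1 kb. The start of Arrdc2 read 150.7 and 205.1, also with a 48 h peak that close. Nova1 held a region of 413.3 and 301, Cntnap2 one of 237 and 232 and Dpp10 one of 215.2 and 215.7, with no 48 h peak within 1 kb. Nova1, Cntnap2 and Dpp10 are known chiefly from neurons. Their regions were called in both Nr1h3 controls, and that of Nova1 also in 1 library at 24 h.

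Group-only regions also lay in runs. Runs of at least 6 such regions, each within 20 kb of the next, numbered 61 at 48 h and 19 in Kupffer cells. The longest was Kupffer-only, with 17 regions over 73.8 kb at Havcr1 and Timd4, and a Kupffer-only run of 9 lay at Tcim. At 48 h, a run of 11 at Runx2 spanned 73.4 kb and another of 11 at Runx3 spanned 60.3 kb. Runs of 8 at 48 h lay at Itgb3 and at Nfkb1. The 48 h-only regions were also the more numerous, 13081 against 4692.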
